A study of Mus musculus with 6 samples.

Results

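The 30 genes described here encode enzymes, regulators and transporters of sterol and fatty acid synthesis. They were chosen by symbol from the 32285 genes in the files, and all 30 were found, each 1 time. By role, 7 act in the mevalonate and isoprenoid steps, 11 between squalene and cholesterol, 4 regulate the pathway, 4 move or export sterols, and 4 make fatty acids or their building block acetyl-CoA. A further 18 genes of the same pathways are given by counts only.

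The data are single-cell RNA-seq libraries of dorsal skin from wildtype FVB males aged p55-57, which were shaved and waxed so that hair regrew. Cells were captured with the 10x Genomics Chromium 3′ kit on the first day, at 0 h, 4 h and 16 h after waxing, and again after 2 d, 4 d or 6 d. Each time point is 1 library, and values are given in this order of time throughout. The skin of 2 mice was digested separately and the cells were then mixed in equal numbers, so single animals cannot be distinguished within a library and time points cannot be tested against each other. No allele or agent other than shaving and waxing was used in these animals.

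Cholesterol is made from acetyl-CoA through mevalonate, isoprenoid units, squalene and lanosterol. When sterols in the endoplasmic reticulum run low, SCAP escorts the SREBP transcription factors to the Golgi, where they are cleaved and released to switch on the genes of the pathway. INSIG proteins hold SCAP back when sterols are plentiful. In skin, sebocytes fill with the wax esters, triglycerides and sterol lipids of sebum, and granular keratinocytes make the cholesterol and fatty acids of the permeability barrier.

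Cells were clustered without the 30 genes, the 18 related genes and other genes of lipid synthesis, and clusters were named from marker genes. The SG markers Scd1, Cidea, Far2 and Elovl3 were among the lipid genes left out of clustering, but were used for naming. The cell types used here are sebaceous gland (SG), basal and suprabasal interfollicular epidermis (IFE.B and IFE.SB, the latter divided into spinous and granular), basal and suprabasal upper hair follicle (uHF.B and uHF.SB), and outer bulge (OB), which holds the hair follicle stem cells. Clusters of the same cells were compared, and the sums of all 6 cell types in the 6 libraries were fitted together with library as block. Each p-value between cell types sets a difference against the spread between libraries, pooled over all 6 types and not the compared pair alone. Of 61031 barcodes, 49974 were kept as cells, 6498 to 10869 per library, and the libraries held 72634390 to 112370376 UMIs, with the highest total at 16 h. Between 7 and 47 barcodes were shared by any pair of libraries. SG had 13 cells at 0 h and 238 to 643 at the later times, OB had 177 to 1040, and IFE.B had 1999 to 3342. The 7 SG markers summed to 6088 to 9869 CPM in SG and to 10.4 to 66.4 CPM in IFE.B. Adipocyte markers, which would share part of this program, summed to at most 1.29 CPM in SG. None of the markers fixed for any cell type was among the 10 leading genes of the IFE.B cluster, which was named from markers of smaller fold. CPM, the unit of all levels here, is the UMI count of a gene as a share of the UMIs of all cells of the type in the library, scaled to a fixed total.

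The promoters of members were read from RefSeq on GRCm38.p6 (mm10), as 250 bases before to 50 bases after the start. The table held 24 of the 30 genes, with 30 promoters. The CCAAT box, searched as CCAAT on both strands, was in 21 of these 30 promoters (70%), against 37.4% of all 32851 promoters of the same length. It was found for all 9 squalene-to-sterol genes that matched, and for 5 of 6 mevalonate genes, 3 of 4 regulators, 3 of 4 fatty acid genes and 0 of 1 transport genes. The sterol regulatory element, searched as TCACNCCAC on both strands, was in 1 member promoter (3.33%), against 1.24% of all promoters. In the sequences shown, no match of one motif overlaps a match of the other. A match is a description of letters and not a measured site.

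Stretches of 200 bases before the start are printed for 4 genes, with motif matches in capitals, since these genes frame the results that follow. Hmgcs1 had the only member promoter with both motifs. Msmo1 and Fasn were higher in SG, and Sc5d, whose promoter also held a CCAAT box, was lower there. In Fasn, 2 of the 3 matches, on opposite strands, overlap. The stretches are chr13:119690151-119690350 on the plus strand for Hmgcs1, and on the minus strand chr8:64733579-64733778 for Msmo1, chr9:42264301-42264500 for Sc5d and chr11:120824548-120824747 for Fasn.
Hmgcs1: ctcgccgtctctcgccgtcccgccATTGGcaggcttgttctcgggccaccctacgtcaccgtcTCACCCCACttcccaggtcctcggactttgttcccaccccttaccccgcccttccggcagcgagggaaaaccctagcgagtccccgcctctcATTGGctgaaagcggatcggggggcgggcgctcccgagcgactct
Msmo1: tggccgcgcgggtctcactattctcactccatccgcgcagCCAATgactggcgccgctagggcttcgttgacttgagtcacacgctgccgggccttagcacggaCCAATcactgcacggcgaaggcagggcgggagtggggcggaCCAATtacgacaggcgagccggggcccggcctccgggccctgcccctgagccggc
Sc5d: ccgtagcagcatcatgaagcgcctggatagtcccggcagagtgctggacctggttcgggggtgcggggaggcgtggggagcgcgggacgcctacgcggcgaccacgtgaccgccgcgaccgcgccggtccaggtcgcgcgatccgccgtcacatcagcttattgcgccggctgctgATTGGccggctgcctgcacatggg
Fasn: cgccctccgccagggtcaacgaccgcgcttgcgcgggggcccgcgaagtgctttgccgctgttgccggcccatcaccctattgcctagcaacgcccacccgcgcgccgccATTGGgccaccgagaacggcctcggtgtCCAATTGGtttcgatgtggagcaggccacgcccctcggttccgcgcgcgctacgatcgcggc

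Summed over the 30 genes, SG held the highest level in each library. The sum in SG was 4777, 7753, 5489, 7620, 9016 and 7065 CPM in time order. In the granular IFE.SB it was 3702, 3714, 4459, 2991, 3762 and 3190 CPM, and in IFE.B 822, 881, 1330, 955, 1390 and 1164 CPM. The ranges of these 3 cell types did not overlap. OB, at 732 to 1285 CPM, and uHF.B, at 609 to 1148 CPM, lay over or below the range of IFE.B. T cells, which were caught in the same libraries, had 872 to 1260 CPM. The level of a gene in a summed cell type mixes how many cells make it with how much each makes. Measured per cell, the order of SG and granular cells was the reverse in each library. The median share from the 30 genes was 18.4, 34.9, 14.3, 17.25, 27.8 and 22.2 per 10000 UMIs in SG. In granular cells it was 36.5, 38.3, 44.4, 30.4, 35.9 and 31.0 per 10000 UMIs.

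**Figure D1:**
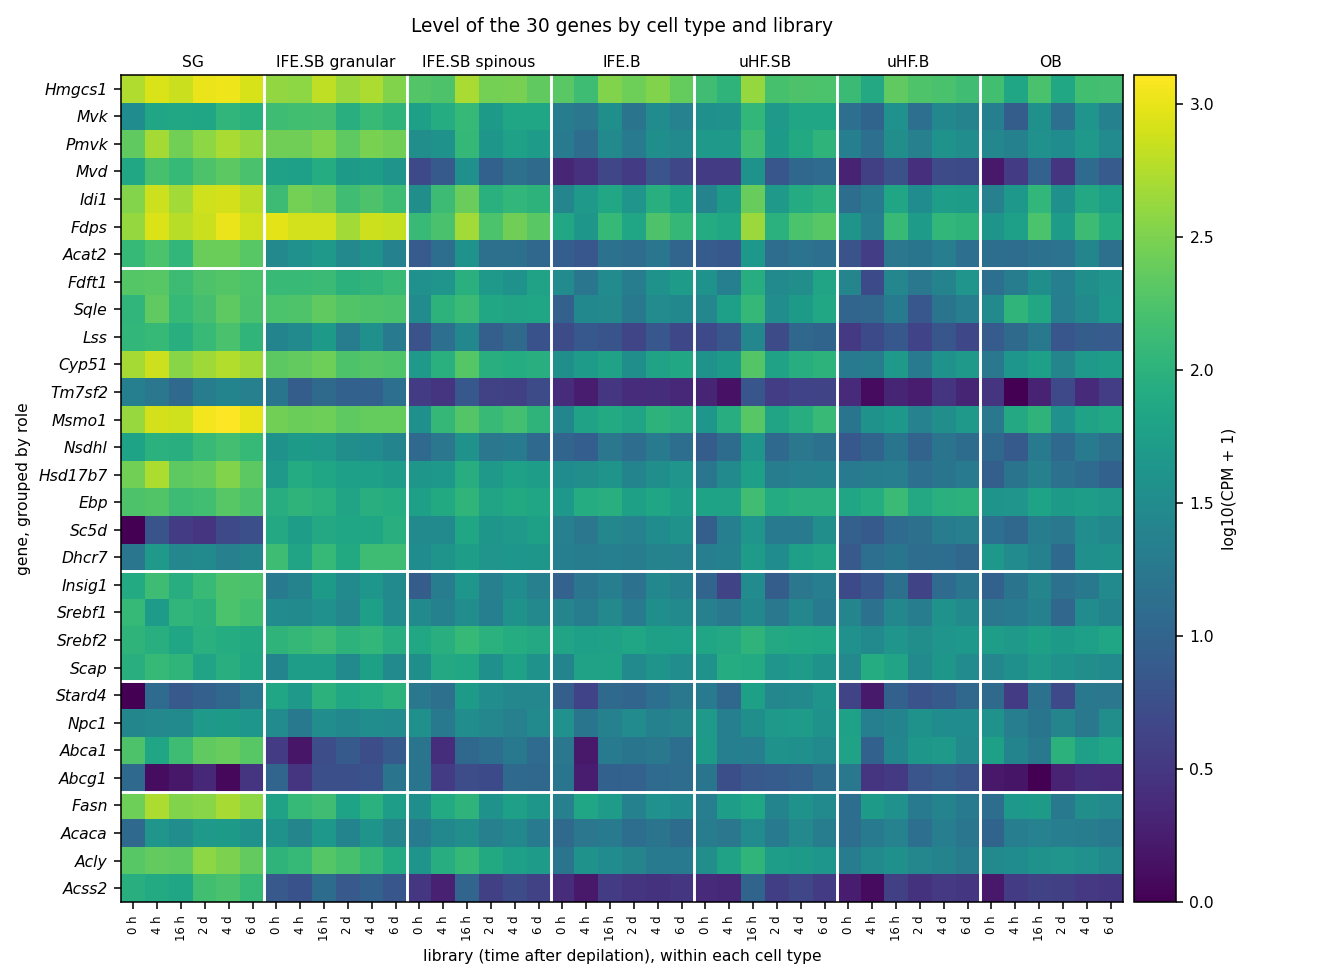
Level of each of the 30 genes (rows, grouped by role) in 7 cell types, with 1 column per library, as log10(CPM + 1). SG and granular IFE.SB columns are brightest for the mevalonate and sterol genes, while the Sc5d, Stard4 and Abcg1 rows are dark in SG.

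In SG, 25 of the 30 genes were higher than in IFE.B and 2 were lower (edgeR, FDR under 0.05 over all 12919 genes tested). Of all genes tested, 24.5% were higher and 32.3% were lower. The median log2 difference was 2.76 for the 30 genes and -0.10 for all genes. In 23 of the 30 genes the lowest SG library lay above the highest IFE.B library, against 9.91% of all genes, and in 1 gene, Sc5d, it was the reverse, against 9.02% of all genes. The count of higher genes was 25 without the 0 h library, whose SG sum rests on 13 cells. All 7 mevalonate genes and all 4 fatty acid genes were higher, as were 9 of 11 squalene-to-sterol genes, 3 of 4 regulators and 2 of 4 transport genes.

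The widest difference was in Acss2, which makes acetyl-CoA from acetate. Its level in SG was 88.5, 79.5, 67.9, 145, 166 and 122 CPM in time order, and in IFE.B 1.47, 0.61, 2.47, 2.05, 1.82 and 2.12 CPM. No SG library came near an IFE.B library, and the log2 difference was 5.84 ± 0.28 (SE; edgeR adjusted p = 4.62e-17). Mvd, the decarboxylase that forms isopentenyl diphosphate, had 72.9, 157, 121, 171, 214 and 163 CPM in SG. In IFE.B it had 1.18, 1.77, 3.65, 2.44, 5.69 and 3.64 CPM, which gave a log2 difference of 5.56 ± 0.37 (edgeR adjusted p = 1.64e-13). Acss2 and Mvd were thus scarce in basal epidermis and well measured in SG.

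Among the mevalonate genes, Pmvk, the phosphomevalonate kinase, ranged from 224 to 525 CPM in SG and from 12.1 to 34.9 CPM in IFE.B, with a log2 difference of 3.89 ± 0.24. Acat2, the cytosolic thiolase that condenses acetyl-CoA, differed by 3.95 ± 0.30. Hmgcs1, which makes HMG-CoA and was already at 139 to 333 CPM in IFE.B, reached 541 to 1061 CPM in SG and differed by 1.60 ± 0.21. The 7 differences of this group lay between 1.53 and 5.56 on the log2 scale. Within the sterol steps, Lss, which closes squalene epoxide to lanosterol, ranged from 89.8 to 162 CPM in SG and from 3.47 to 6.24 CPM in IFE.B, and its log2 difference was 4.42 ± 0.26. Msmo1, a sterol methyl oxidase, had 427 to 1288 CPM against 25.4 to 102 CPM, a log2 difference of 3.51 ± 0.25. Tm7sf2, a sterol reductase, differed by 3.50 ± 0.30. Pmvk, Acat2, Hmgcs1, Lss, Msmo1 and Tm7sf2 were higher in every SG library than in any IFE.B library, while the ranges of Mvk overlapped through the 0 h library of SG.

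Sc5d, the desaturase whose product is the substrate of Dhcr7, went the other way. It had 0, 5.51, 2.56, 1.94, 3.88 and 4.68 CPM in SG and 21.6, 15.9, 26.6, 23.0, 31.3 and 38.2 CPM in IFE.B. The 0 at 0 h, from 192172 UMIs, allows a level of up to 15.6 CPM (3 UMIs, counting error only), and the upper limit of its exact Poisson 95% interval is 19.2 CPM, above the lowest IFE.B library. The measured level of every SG library was below that of every IFE.B library, and the log2 difference was -3.16 ± 0.28 (edgeR adjusted p = 4.27e-11). Its neighbor in the pathway, Dhcr7, which reduces 7-dehydrocholesterol to cholesterol, did not pass the test, at 15.6 to 46.4 CPM in SG and 19.6 to 23.3 CPM in IFE.B (log2 difference 0.23 ± 0.27).

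The transport genes split. Abca1, an exporter that loads cholesterol onto apolipoproteins, had 172, 66.9, 137, 226, 242 and 200 CPM in SG and 15.9, 0.61, 18.3, 15.3, 16.5 and 12.3 CPM in IFE.B. Its log2 difference was 3.64 ± 0.35 (edgeR adjusted p = 3.19e-10), and in both cell types the 4 h library was the lowest. Abcg1, a sterol exporter of the same class of transporters, had 10.4, 0.26, 0.60, 1.29, 0.17 and 2.00 CPM in SG and 15.3, 0.71, 8.20, 8.51, 11.2 and 11.9 CPM in IFE.B. Its log2 difference was -3.31 ± 0.44, and the ranges overlapped through the 0 h library of SG and the 4 h library of IFE.B. Stard4, a carrier of cholesterol between membranes, did not pass the test (log2 difference -0.17 ± 0.29), and Npc1, which lets cholesterol out of lysosomes, was higher by 0.46 ± 0.18.

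Of the regulators, Insig1 was higher in SG by 2.66 ± 0.25, Srebf1, which encodes the SREBP of fatty acid genes, by 1.89 ± 0.12, and Scap by 0.88 ± 0.11. Srebf2, which encodes the SREBP of sterol genes, had 67.7 to 104 CPM in SG and 55.7 to 67.0 CPM in IFE.B. These ranges did not overlap, yet the log2 difference of 0.24 ± 0.11 missed the threshold (edgeR adjusted p = 0.0646). Of the fatty acid genes, Fasn, the fatty acid synthase, had 265 to 539 CPM in SG against 21.6 to 68.6 CPM, and Acly, which makes cytosolic acetyl-CoA from citrate, 198 to 379 CPM against 14.7 to 38.4 CPM. Both differed by 3.23 on the log2 scale. Acaca, the acetyl-CoA carboxylase, differed by 1.26 ± 0.16. Of the 18 related genes, 8 were higher in SG and 4 were lower. Among them, Soat1, which esterifies cholesterol, was higher by 9.06 ± 0.32, and Mylip, which marks lipoprotein receptors for degradation, had a difference of -4.13 ± 0.32.

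**Figure D2:**
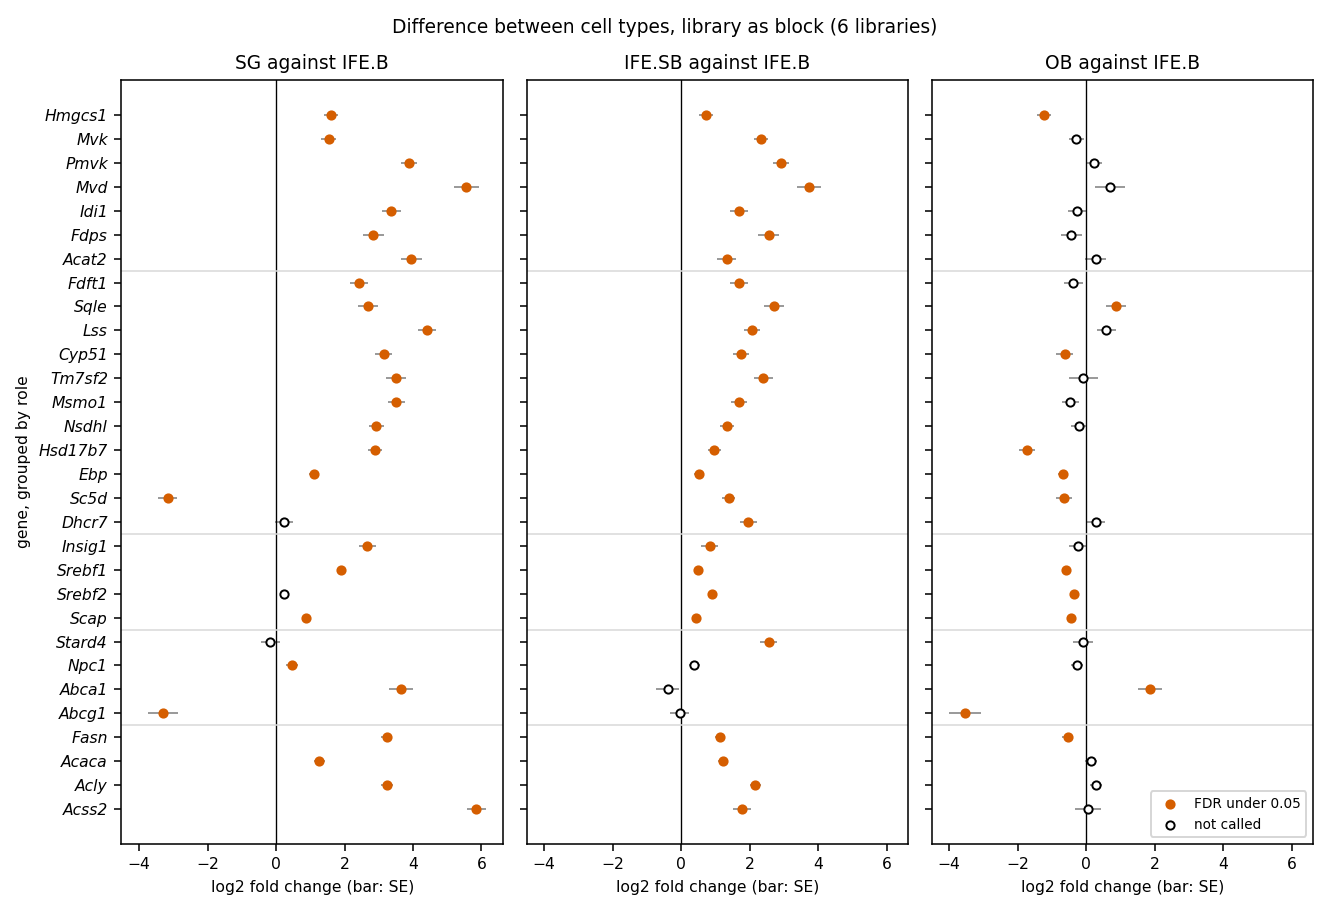
Log2 difference of each of the 30 genes between SG and IFE.B, IFE.SB and IFE.B, and OB and IFE.B, with SE, from 6 libraries. Filled points passed an FDR of 0.05: 27 in SG, 27 in IFE.SB and 12 in OB, and the filled points of OB lie mostly left of 0.

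At the doubled clustering resolution of 0.4, the SG cells, a single cluster at 0.2, fell into 2 clusters that differed widely in these genes. The cluster led by Fa2h, Elovl3 and Cidea, with 2 to 186 cells per library, had summed levels of 14032, 15177, 14383, 17207, 17566 and 14865 CPM in time order. The cluster led by Akr1c18, Lcn2 and Igfbp2, with 11 to 457 cells, had 1778, 2893, 1299, 1506, 2335 and 1977 CPM. The 2 ranges were far apart, so the summed SG level also moves with the share of the former cluster. Msmo1 ranged from 1595 to 2792 CPM in the former and from 44.8 to 242 CPM in the latter. Sc5d ranged from 0 to 1.66 CPM in the former and from 0 to 9.12 CPM in the latter, and so was low in both. The ranges of Abca1 overlapped, at 123 to 255 CPM and at most 232 CPM. These values are a description of clusters made from the same cells and carry no test.

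Against OB, SG was higher in 26 of the 30 genes and lower in 1, where 25.2% and 32.2% of all genes were. The median log2 difference was 2.87 for the 30 genes. Sc5d was the gene that was lower, with a log2 difference of -2.51 ± 0.30. The largest differences were in Acss2 (5.79 ± 0.34), Mvd (4.87 ± 0.41) and Hsd17b7, a sterol ketoreductase (4.61 ± 0.24). Next came Msmo1 (3.97 ± 0.26), Lss (3.83 ± 0.28), Cyp51, the lanosterol demethylase (3.78 ± 0.26), Fasn (3.77 ± 0.17) and Acat2 (3.68 ± 0.32). Abca1 was higher by 1.78 ± 0.34.

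**Figure D3:**
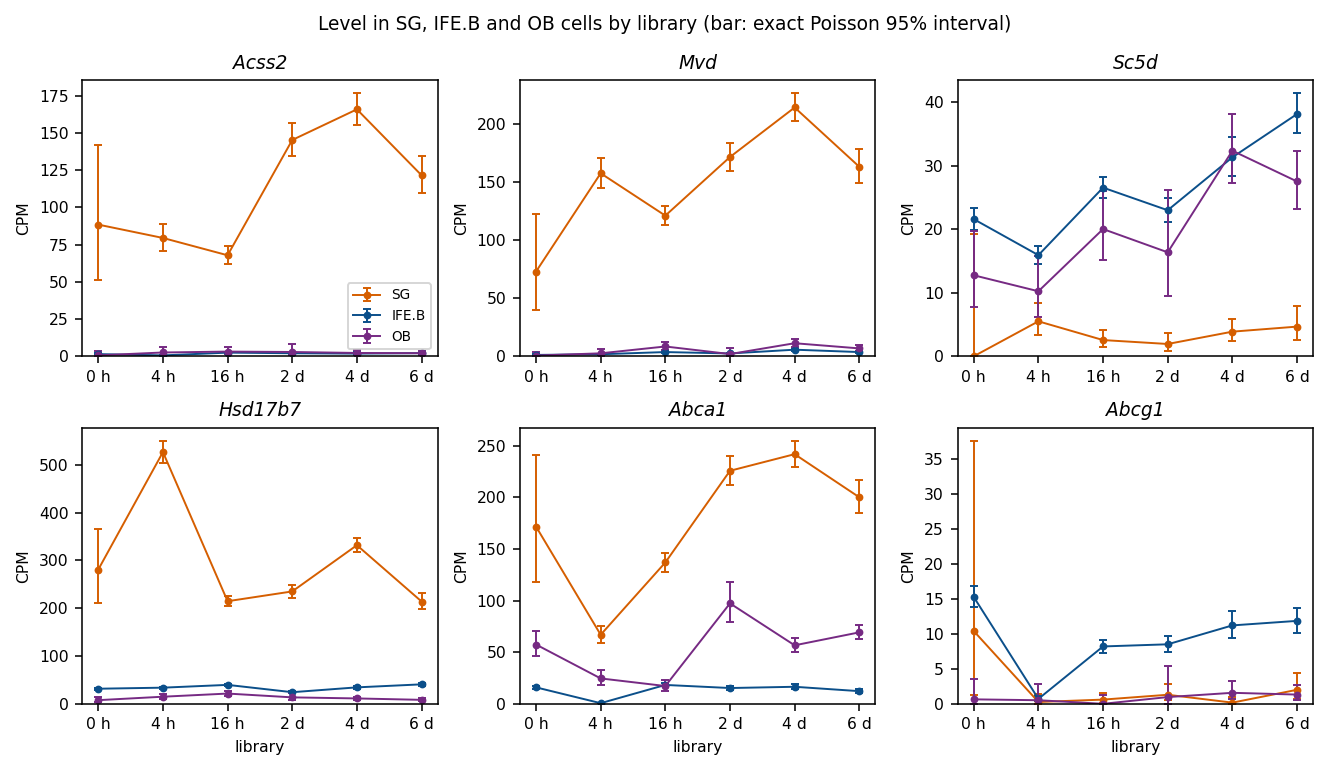
CPM of 6 genes in SG, IFE.B and OB by library (1 point per library, bars the exact Poisson 95% interval, which covers counting error only; time points are evenly spaced). Acss2, Mvd, Hsd17b7 and Abca1 were highest in SG in each library, Sc5d was lowest there, and Abca1 was lowest at 4 h in SG and IFE.B.

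In suprabasal epidermis, 27 of the 30 genes were higher than in IFE.B and 0 were lower, where 27.8% and 26.7% of all genes were (edgeR). No gene was called lower with DESeq2 either. The median log2 difference was 1.53 for the 30 genes and -0.01 for all genes. The mevalonate genes, the sterol genes, the regulators and the fatty acid genes were all higher, but only 1 of the 4 transport genes was. Mvd differed by 3.73 ± 0.35, Pmvk by 2.92 ± 0.22, Sqle, the squalene epoxidase, by 2.71 ± 0.29 and Fdps, which makes farnesyl diphosphate, by 2.56 ± 0.31. Stard4 differed by 2.55 ± 0.25, Tm7sf2 by 2.40 ± 0.28, Mvk, the mevalonate kinase, by 2.34 ± 0.21 and Acly by 2.17 ± 0.16. In contrast to SG, Sc5d (1.38 ± 0.20) and Dhcr7 (1.96 ± 0.25) were higher. Abca1 (-0.40 ± 0.33), Abcg1 (-0.04 ± 0.28) and Npc1 (0.39 ± 0.17) did not pass the test. Of the 18 related genes, 4 were higher and 5 were lower.

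Levels were mostly higher in granular than in spinous cells. In 22 of the 30 genes the granular level was above the spinous level in all 6 libraries, against 18% of all genes. Fdps had 966, 794, 784, 478, 740 and 682 CPM in granular cells and 127, 162, 480, 169, 268 and 204 CPM in spinous cells. Dhcr7 had 139, 64.8, 121, 76.0, 138 and 138 CPM in granular cells and 31.3, 39.6, 54.4, 41.0, 42.6 and 43.0 CPM in spinous cells. For both genes the lowest granular library lay near or above the highest spinous library. Abca1 and Scap went the other way in all 6 libraries, with Abca1 at 0.55 to 6.59 CPM in granular and 1.54 to 17.3 CPM in spinous cells. Granular cells had 23766 to 42048 UMIs per cell and spinous cells 8663 to 12186, so the share of UMIs and not the depth is compared.

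The same contrast in the upper follicle, added after the data were seen, gave 26 of 30 genes higher in uHF.SB than in uHF.B and 0 lower, where 27.8% and 22.7% of all genes were (edgeR). DESeq2 also called 0 lower. The median log2 difference was 1.19. Stard4 (2.61 ± 0.28), Sqle (2.30 ± 0.30), Mvd (2.05 ± 0.39) and Dhcr7 (2.05 ± 0.27) led, followed by Mvk (1.85 ± 0.21), Msmo1 (1.76 ± 0.24), Pmvk (1.74 ± 0.22) and Tm7sf2 (1.65 ± 0.36). Cyp51 came next, at 1.65 ± 0.24. Acat2, Ebp, Srebf1 and Abca1 did not pass the test, with log2 differences of 0.60, 0.15, -0.02 and 0.15. Of the 18 related genes, 5 were higher and 6 were lower.

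In the outer bulge the genes were not raised. Only 2 of the 30 were higher than in IFE.B and 10 were lower, where 23% and 25.1% of all genes were (edgeR), and the median log2 difference was -0.27. Hsd17b7 had 7.66, 14.9, 21.5, 13.5, 11.2 and 8.30 CPM in OB and 31.6, 33.8, 39.6, 24.3, 34.4 and 40.7 CPM in IFE.B. All OB libraries were below all IFE.B libraries, and the log2 difference was -1.73 ± 0.23 (edgeR adjusted p = 2.64e-07). Hsd17b7 was the only 1 of the 30 genes below without overlap, near the share of all genes (3.94%). Hmgcs1 had 148, 65.6, 165, 72.3, 147 and 149 CPM in OB, lower than IFE.B within each library (log2 difference -1.23 ± 0.21). Abcg1 was at 0 to 1.57 CPM in OB, where the 0 at 16 h allows up to 1.05 CPM, with a log2 difference of -3.55 ± 0.46. Ebp, a sterol isomerase, differed by -0.68 ± 0.14, Sc5d by -0.65 ± 0.23, and Cyp51 by -0.63 ± 0.24. The call of Cyp51 was lost without the 0 h, 2 d, 4 d or 6 d library, with DESeq2 size factors and with equal cell numbers (highest adjusted p in these edgeR fits 0.19), and that of Sc5d without the 6 d library. Srebf1, Fasn, Scap and Srebf2 were lower by smaller amounts.

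Both genes that were higher in OB varied over time. Abca1 had 57.4, 24.6, 17.2, 97.3, 56.7 and 69.2 CPM in OB, a log2 difference of 1.86 ± 0.34 from IFE.B, and at 16 h the levels of the 2 cell types were alike. Sqle had 29.4, 107, 71.0, 20.2, 29.9 and 44.1 CPM in OB and 7.91, 27.0, 28.3, 17.0, 30.5 and 27.5 CPM in IFE.B, with a log2 difference of 0.88 ± 0.29. Its OB level was highest at 4 h and 16 h, and at 4 d it did not exceed that of IFE.B. Sqle was not called without the 0 h library, which left 1 higher gene, without the 4 h library or with no low count filter. Of the 18 related genes, 4 were higher in OB and 2 were lower. Among them Soat1 was higher by 3.01 ± 0.36 and Scarb1, a receptor for high-density lipoprotein, by 1.98 ± 0.34.

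Over the time course, 0 of the 30 genes passed the test in IFE.B, IFE.SB, uHF.B or uHF.SB, where 0% of all genes did (edgeR, spline of hours, 2 residual degrees of freedom). In OB 0 of 27 tested genes passed, where 0.382% of all genes did. DESeq2 called 0 members in these 5 cell types. At an unadjusted p under 0.05 there were again 0 members in each, with 80 to 642 genes in all. The 4 members with the smallest p in each type had edgeR adjusted p-values near 1. In uHF.SB they were Dhcr7 (log2 change over the course 1.52 ± 0.46, the smallest unadjusted edgeR p of the 5 types, 0.0669), Sc5d (0.88 ± 0.54), Msmo1 (0.68 ± 0.57) and Idi1 (0.93 ± 0.81). In uHF.B they were Sc5d (1.47 ± 0.50), Acat2 (1.33 ± 0.67), Idi1 (1.31 ± 0.64) and Stard4 (1.55 ± 0.90). These trends were positive, as were those of Fdft1 (0.99 ± 0.52), Stard4 (1.32 ± 0.63), Mvd (1.35 ± 0.74) and Sc5d (0.91 ± 0.44) in IFE.B. In IFE.SB they were Acly (-0.50 ± 0.36), Insig1 (0.56 ± 0.49), Nsdhl (-0.72 ± 0.41) and Abcg1 (1.07 ± 0.80), and in OB Dhcr7 (0.03 ± 0.56), Sqle (-1.13 ± 0.77), Insig1 (0.76 ± 0.59) and Hsd17b7 (-0.84 ± 0.67). Without the 4 h library Abcg1 was called in IFE.SB, and without the 0 h library Abca1 and Sqle were called in OB. On the log2(hours + 1) scale 2 OB genes were called, Msmo1 and Sqle. The number of all genes called also moved over the alternatives, from 0 to 910 in IFE.SB and from 1 to 1864 in OB. These calls are thus not read as particular to the members. With 1 library per time point, a change at a single time can be missed by a smooth curve.

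The SG time course was fitted to the 5 libraries from 4 h to 6 d, a choice made after the 13 SG cells of 0 h were seen. In it 0 of 29 tested members passed, where 0.0746% of all genes did, and 3 members (of 29) had an unadjusted p under 0.05, a share near the 10.8% of all genes. They were Abca1 (linear log2 change 1.24 ± 0.33, edgeR adjusted p = 0.265), Acss2 (0.84 ± 0.35, adjusted p = 0.405) and Srebf1 (1.18 ± 0.37, adjusted p = 0.407). Npc1 came next, at 0.64 ± 0.32. Abca1 passed with DESeq2 and with time taken as log2(hours + 1) or as rank. Over the alternatives, 0 to 770 of all genes were called in SG. The linear trend differed between OB and IFE.B for 0 of 30 members, where 0.216% of all genes differed, and between SG and IFE.B for 0 of 30, where 0% did. At an unadjusted p under 0.05 there was 1 member of 30 in the former, where 11.1% of all genes were, and 0 in the latter, where 4.42% were. The member was Sqle (difference in trend -1.65 ± 0.63, edgeR adjusted p = 0.331). In SG, Acly (0.93 ± 0.44), Fdft1 (-1.15 ± 0.55), Acaca (0.79 ± 0.43) and Cyp51 (-0.81 ± 0.51) had the smallest p. After Sqle, Hsd17b7 (-1.16 ± 0.62), Msmo1 (-0.79 ± 0.56) and Lss (-0.72 ± 0.57) had the smallest p for OB.

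**Figure D4:**
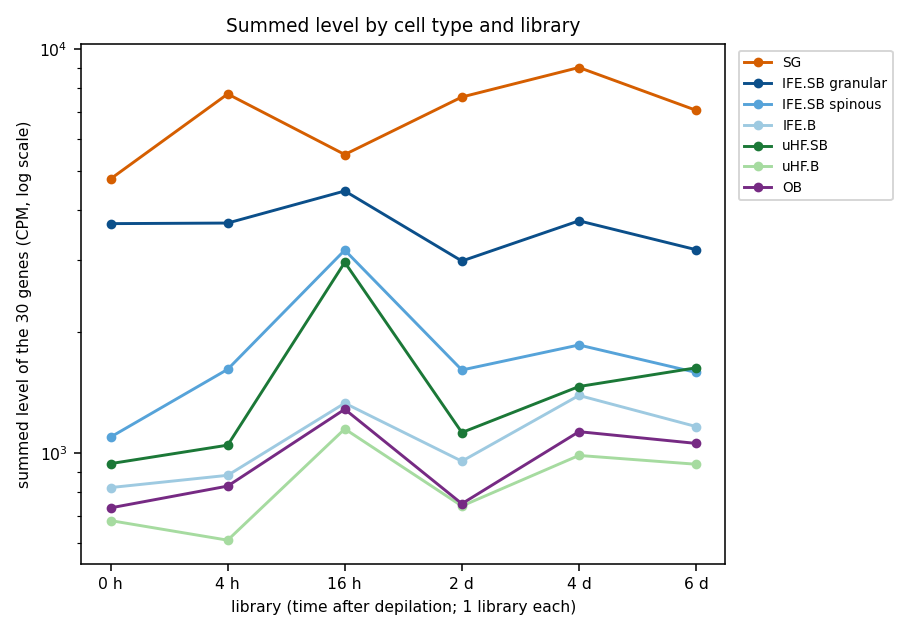
Summed CPM of the 30 genes (log scale) by library in 7 cell types, with 1 point per library and time points evenly spaced. SG was highest throughout, and spinous IFE.SB and uHF.SB stood at 3182 and 2968 CPM at 16 h.

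At 16 h the genes were high together in spinous epidermis and in uHF.SB. The summed level in uHF.SB was 942, 1047, 2968, 1125, 1462 and 1627 CPM in time order, and in spinous cells 1096, 1613, 3182, 1607, 1853 and 1585 CPM. In both cell types the 16 h library stood above all others. This was seen in the values first and is given with no test, since 16 h is 1 library. In uHF.SB, 21 of 30 genes were at least 2-fold above the median of the other 5 libraries, against 4.56% of all genes with at least 50 UMIs. In spinous cells it was 14 of 30 (2.76% of all genes), in uHF.B 7 of 30 (3.06%), in OB 5 of 27 (5.72%) and in granular cells 2 of 30 (3.65%). In IFE.B it was 0 of 30 (2.82%) and in SG 0 of 29 (5.03%). The 16 h library was the highest for 25 of 30 genes in uHF.SB, against 18.5% of all genes. In spinous cells it was the highest for 25 of 30, against 15.2%. It was also the highest for 15 of 30 in granular cells (1451 of all 10742 genes) and 12 of 27 in OB (1208 of 10689). In uHF.B it was the highest for 13 of 30 (2124 of 11530) and in IFE.B for 7 of 30 (2205 of 12630).

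All 7 mevalonate genes passed this rule in uHF.SB. Fdps had 81.5, 73.0, 442, 95.1, 171 and 201 CPM there, and Idi1, the isopentenyl diphosphate isomerase, had 23.7, 48.8, 240, 46.3, 81.7 and 98.6 CPM. Mvd had 2.51, 2.5, 38.9, 5.75, 10.4 and 11.1 CPM. In these 3 genes the 16 h library was more than 2-fold above the next highest library. Acat2 had 6.97, 6.26, 44.8, 12.1, 14.2 and 12.8 CPM in uHF.SB and 6.80, 12.2, 37.1, 13.2, 13.2 and 9.88 CPM in spinous cells. Lss, with 3.91, 5.84, 26.2, 4.17, 10.2 and 9.02 CPM in uHF.SB, followed the same course. Abca1 did not, at 48.3, 20.9, 20.7, 37.3, 35.6 and 29.8 CPM, and Npc1, Abcg1, Scap and Dhcr7 were also not highest at 16 h. The genes that passed the rule in spinous cells were Hmgcs1, Pmvk, Mvd, Idi1, Fdps, Acat2, Fdft1 (squalene synthase), Lss, Cyp51, Tm7sf2, Nsdhl (a sterol decarboxylase), Fasn, Acly and Acss2.

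Measured per cell, the median share of a cell's UMIs from the 30 genes followed the sums. In uHF.SB it was 7.52, 7.41, 18.2, 8.76, 10.3 and 11 per 10000 UMIs in time order, and in spinous cells 9.72, 13.2, 25.9, 13.0, 15.8 and 12.5. The 16 h median was thus the highest in both, and the sums did not rest on a few cells. With equal numbers of cells from each library, 18 of 29 genes in uHF.SB met the rule, against 4.44% of all genes. Krt10 and Krt1, from the list of spinous markers, were also highest at 16 h in uHF.SB. Krt10 had 7103 CPM, against 2415 to 3777 CPM at the other times, and Krt1 had 3063 CPM, against 625 to 1990 CPM. The other markers of that list are not given here. In spinous cells Krt10 was highest at 16 h, at 15856 CPM, and Krt1 at 2 d, at 9059 CPM. The 6 markers of the companion layer and inner bulge, some of which keratinocytes also make after injury, summed to 905 CPM in uHF.SB at 16 h, 3463 CPM at 4 h and 64.2 to 393 CPM at the other times. The part of these changes in the 16 h result was not tested, nor was that of the total UMI count, which was highest in this library.

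**Figure D5:**
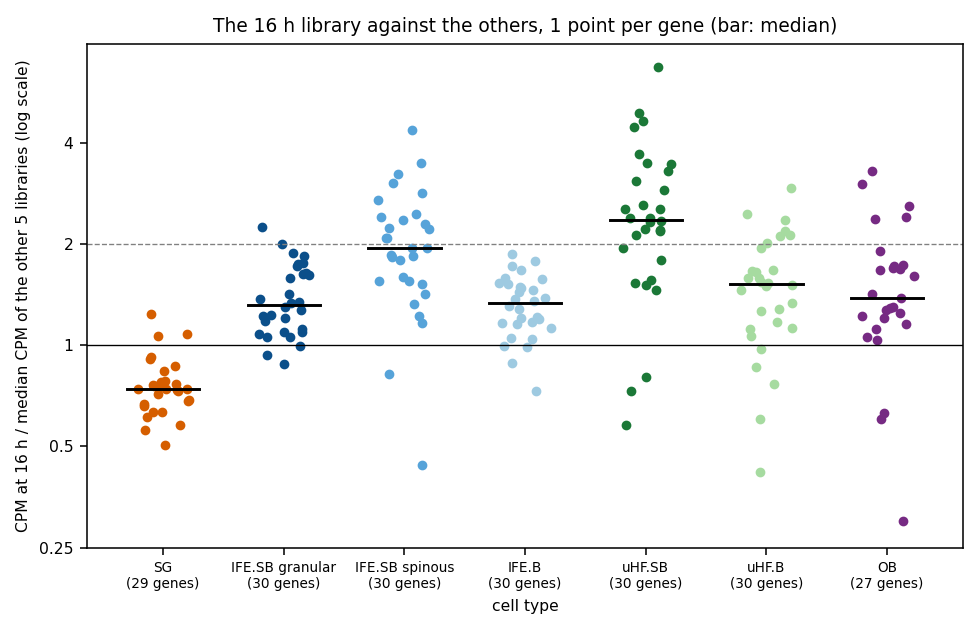
CPM at 16 h over the median CPM of the other 5 libraries, 1 point per gene with at least 50 UMIs, by cell type (log scale, bar the median, dashed line at 2-fold). In uHF.SB 21 of 30 points lie at or above 2-fold, in spinous IFE.SB 14 of 30, and in IFE.B and SG none.

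The 4 h library was the low point of several genes in basal cells. In IFE.B, 8 of 30 genes were at or below 1/2 of the median of the other libraries, where 23.1% of all genes were, and in uHF.B 14 of 30, where 23.5% of all genes were. The share in IFE.B was thus near that of all genes. Abca1 and Abcg1 met this rule in both. Abca1 was at 0.61 CPM in IFE.B at 4 h, where the other libraries had 12.3 to 18.3 CPM, and at 8.34 CPM in uHF.B, where they had 26.0 to 60.9 CPM. Fasn was the opposite, with 68.6 CPM in IFE.B at 4 h against 21.6 to 49.9 CPM at the other times, and 49.1 CPM in uHF.B against 12.3 to 36.5 CPM.

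Cycling cells were compared with other cells of the same type and library. In IFE.B, 11 of 30 genes were higher in cycling cells and 5 were lower, where 17.6% and 26.5% of all genes were (edgeR). Stard4 was higher by 1.13 ± 0.27, Acat2 by 0.88 ± 0.10, Fdft1 by 0.60 ± 0.19, Fdps by 0.53 ± 0.16 and Nsdhl by 0.52 ± 0.11 on the log2 scale, while Abca1 had -0.96 ± 0.10. Next were Idi1 (0.48 ± 0.14) and Abcg1 (-0.43 ± 0.11). By role, 5 of 7 mevalonate genes were higher, 3 of 4 transport genes were lower, and 0 of 4 fatty acid genes passed. Without the 0 h library, and likewise without the 6 d library, 6 genes were higher and 3 were lower. Fdps was not called without the 0 h, 4 h, 2 d or 6 d library, Fdft1 without the 0 h, 4 h or 2 d library, Stard4 without the 4 h library and Idi1 without the 6 d library.

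In uHF.B, 4 of 29 genes were higher and 3 were lower, where 13.5% and 17.6% of all genes were. The shares of members were thus near or below those of all genes. The higher genes were Acat2 (0.59 ± 0.15), Stard4 (0.55 ± 0.20), Idi1 (0.53 ± 0.12) and Cyp51 (0.35 ± 0.12). The lower genes were Abca1 (-0.68 ± 0.09), Npc1 (-0.42 ± 0.10) and Hsd17b7 (-0.35 ± 0.13). Hsd17b7 was not called without the 0 h, 4 h, 16 h or 4 d library, Stard4 without the 16 h, 2 d or 4 d library, and Cyp51 without the 0 h or 2 d library, and DESeq2 called none of these 3. Without the 2 d library 2 genes were higher. In OB, where the 4 h library had too few cycling cells, 1 of 27 genes was higher and 1 was lower, where 3.27% and 2.1% of all genes were. These counts were also near the shares of all genes. The genes called were Hmgcs1 (0.49 ± 0.15, edgeR adjusted p = 0.0254) and Abca1 (-0.58 ± 0.19, edgeR adjusted p = 0.044). Neither was called without the 4 d or the 6 d library, with DESeq2 or at doubled clustering resolution, 4 genes were higher without the 16 h library, and Abca1 was not called without the 2 d library. Abca1 was the only member called lower in cycling cells of all 3 types. The share of cycling cells was lowest at 4 h in each type, at 8.24% in IFE.B, 7.74% in uHF.B and 1.97% in OB.

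Reads of 11 members may be shared with an overlapping gene, since their exons overlap those of another gene in the annotation, and the strand setting of the counting is not given in the sources used here. For 3 of them the overlap is on the same strand, Fdps with Gm43738, Srebf1 with Mir6922 and Tm7sf2 with Vps51.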

How the data were processed

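The authors aligned and counted reads with Cell Ranger 6.1.2 on mm10 and deposited its filtered output, raw UMI counts by gene and barcode that were not normalized. The annotation, the treatment of intronic reads and the strand setting are not given in the sources used here. From these counts, barcodes with 500 to 7000 genes and at most 10% mitochondrial UMIs were kept, and 5203 of 55177 were removed as doublets by Scrublet score (scanpy 1.11.5; 0.8% per 1000 barcodes). Libraries were joined with Seurat 5.3.0 (2000 variable genes, 30 principal components) and clustered at resolution 0.2, leaving out 494 genes, the members among them. A cluster took the name of the marker list with the highest mean fold, with at least 3 markers higher by 0.5 on the log2 scale.

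Counts were summed per library and cell type. edgeR 4.0.16 in R 4.3.3 fitted quasi-likelihood models with the robust option, TMM factors and filterByExpr, either with library as block and cell type, or with a natural cubic spline of hours (3 degrees of freedom, and 2 for SG from 4 h to 6 d). Calls are at an FDR of 0.05 over all genes tested. Cycling cells had at least 2 UMIs of 10 markers after thinning to 2000 UMIs. No test replaces the missing replicates, since each time point is 1 library. Intervals of single levels are exact Poisson 95% intervals and cover counting error only. The planned SG time course was not fitted, as 0 h had under 20 cells. Alternatives were DESeq2 1.42.0 and its size factors, no count filter, resolution 0.4, other time scales, equal cell numbers and leaving out each library. The fits were tested on simulated data. The members, lists and tests were chosen with earlier results of these data known. All 30 genes are accounted for, and in each test the up to 8 called members of largest change, or with none called the 4 of smallest p, are given in full.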

Additional observations from a re-analysis of the deposited data

How the results depend on the processing

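Of 280 alternatives to the counts of members, 255 stayed within 1.5 times. Of 1016 alternatives for single members 961 kept their direction and their side of the threshold, 40 lost and 6 gained a call, and 9 turned. These totals include the time course and trend counts, which were 0 in the main fits and are scored as unchanged when they stay 0. They also include single members of those fits, which were not called. In the comparisons of SG, IFE.SB and uHF.SB no count of members moved by more than 1.5 times, with 23 to 26 genes higher in SG than in IFE.B, 24 to 26 higher than in OB, 27 to 28 higher in IFE.SB and 22 to 26 higher in uHF.SB. With no low count filter 1 member was higher in OB than in IFE.B, and leaving out a library gave 1 to 2. For the time course, leaving out a library gave 0 to 1 members in IFE.SB and 0 to 2 in OB, and the log2(hours + 1) scale gave 2 in OB. In SG from 4 h to 6 d, 1 member was called with DESeq2, with log2(hours + 1) and with rank. In cycling cells DESeq2 gave 3 lower members in IFE.B, 2 higher in uHF.B, and 0 higher and 0 lower in OB. Doubled resolution also gave 0 and 0 in OB. Leaving out a library gave 6 to 12 higher and 3 to 5 lower in IFE.B, 2 to 5 higher in uHF.B, and 0 to 4 higher and 0 to 1 lower in OB. The turned values were the trend of Idi1 in uHF.SB without the 0 h library (-0.17, within -0.166 to 1.70 over the libraries left out) and that of Dhcr7 in OB, which was -0.0043 with DESeq2 size factors, -0.0042 with DESeq2, -0.72 on the log2(hours + 1) scale, -0.42 by rank, and -0.57 to -0.012 without the 16 h, 2 d, 4 d or 6 d library, within -0.568 to 0.536 over all libraries left out. None of these passed the test. The cause of these changes was not tested.

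The number of all genes called over the time course moved more than that of members. Over the alternatives it was 0 to 21 in IFE.B, 0 to 910 in IFE.SB, 0 to 59 in uHF.B, 0 to 349 in uHF.SB, 1 to 1864 in OB against 40, and 0 to 770 in SG against 8. For the difference in trend it was 4 to 227 in OB against 27. When every library gave as many cells of a type as the smallest one, 3799 genes differed between SG and IFE.B against 7334, and 3808 between SG and OB against 7416, since each SG sum then held 13 cells. Genes called in cycling OB cells numbered 14 to 965 against 524. The SG level at 0 h rests on few cells, and genes near 1 CPM are limited by depth. No paired analysis was possible because the labels give no replicate numbers and each time point is 1 library, and comparisons of cell types already carry the library as block.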

Other observations

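The members were also measured in cells outside the 6 compared types. In the hair follicle cluster numbered 1, the summed level was 3261 CPM at 4 h, from 44 cells, and 679 to 1316 CPM in the other libraries. The hair follicle cluster named from markers of the inner root sheath and matrix had 380 cells at 4 d and 117 at 6 d. There Fdps was at 806 and 454 CPM and Hmgcs1 at 366 and 312 CPM. Acss2 was at 3.38 and 10.6 CPM and Abcg1 at 0 and 1.06 CPM in the same libraries. No cause of these values was tested.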
